A study of Mus musculus with 18 samples.

Results

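Expression of 37 genes of the cell cycle and of DNA replication was followed through neutrophils sorted from 6 mouse tissues. The genes were taken from a fixed list of symbols and matched to the Ensembl identifiers of the deposited table. A gene was kept when its value was at least 1 in 3 or more libraries. All 37 listed genes passed that filter, as did 16157 of the 32328 genes in the table. The member seen least often, Mcm5, reached a value of 1 in 5 libraries, and 1 member, Mki67, reached it in all 18.

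The samples were Ly6G-positive neutrophils from adult C57BL/6 mice of 8 to 12 weeks, with no genetic change or treatment named in the labels. Each of 6 tissues gave 3 libraries: Blood, bone marrow (BM in the labels), Spleen, Intestine, Lung and Skin. The labels place the Intestine samples in the colon and the Skin samples in the ear. Cells were sorted on CD45, CD11b, Ly6G and a viability dye, with a stated typical purity above 95%, and the RNA was amplified before sequencing. The labels do not say whether the 3 libraries of a tissue came from separate mice, so the p-values measure only the spread between these libraries.

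Values are deposited scaled counts: estimated reads per gene, per 1000000 of a scaled library size. They are not divided by gene length, so levels are compared between genes only per kilobase of exon. A gene with no reads carries a small floor value, between 0.0364 and 0.216 depending on the library, and is described here as listed at 0. Estimated reads per library ranged from 2935582 in Lung replicate 1 to 12087938 in Spleen replicate 2. Libraries of one tissue scattered least in Blood (residual SD 0.733 on the log2 scale) and Spleen (0.742) and most in Skin (1.81). The sum of 18 neutrophil identity genes, such as S100a8, S100a9 and Csf3r, was 39803 to 52566 in BM, 37248.5 to 39326 in Blood and 14803 to 20016 in Spleen. It was 7949.9 to 25361 in Lung, 2206 to 28559 in Skin and only 1209.7 to 1557 in Intestine. None of the 18 was at 0 in all 3 libraries of any tissue, and all 18 were lower in Intestine than in Blood (limma, adjusted p under 0.05 each). Intestine libraries also carried 8.24% to 23.2% of their scaled counts in mitochondrial genes, against 0.209% to 0.228% in Blood. In sorted bulk samples, fewer cells that express a gene and less RNA per cell cannot be told apart.

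A cell that divides first copies its DNA and then separates the copies. In S phase, ribonucleotide reductase and thymidylate enzymes supply deoxynucleotides, the minichromosome maintenance (MCM) helicase unwinds licensed origins, and the sliding clamp PCNA holds the polymerases on the template. In mitosis, cyclin B with Cdk1, the Aurora and Polo kinases, kinesins and the kinetochore condense, align and pull apart the chromosomes, under a checkpoint that restrains the anaphase-promoting complex. In the neutrophil lineage, division is a property of bone marrow precursors, and the segmented cell that enters the blood is regarded as post-mitotic.

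Promoters of 6 members are shown, marked for short elements by which such genes are grouped. These are the CCAAT box, the cell cycle genes homology region (CHR, TTTGAA) and the E2F site (searched as TTTGGCGC, TTTCGCGC or TTCCCGC). Each gene shown is the member with the smallest adjusted p in its role. The sequences are from RefSeq on GRCm38.p6, 200 bases up to the gene's start (166 for Ccnb1, cut where its GENCODE model begins), 5′ to 3′ on the coding strand. Capitals mark a CCAAT, CHR or E2F match on either strand, so a CCAAT box on the other strand reads ATTGG and a CHR reads TTCAAA. The stretches are chr7:102441495-102441694 (plus strand), chr1:20820313-20820512 (minus), chr13:100786571-100786736 (minus), chr2:118598011-118598210 (plus), chr9:61946800-61946999 (minus) and chr11:99024190-99024389 (minus).
Rrm1: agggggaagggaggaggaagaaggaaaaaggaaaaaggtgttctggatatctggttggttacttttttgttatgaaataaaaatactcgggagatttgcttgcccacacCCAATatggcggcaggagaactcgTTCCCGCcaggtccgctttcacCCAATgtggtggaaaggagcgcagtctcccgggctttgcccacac
Mcm3: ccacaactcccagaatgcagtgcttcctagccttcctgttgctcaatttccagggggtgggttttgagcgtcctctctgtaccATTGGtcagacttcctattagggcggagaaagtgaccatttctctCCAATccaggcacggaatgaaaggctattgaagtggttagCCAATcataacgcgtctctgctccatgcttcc
Ccnb1: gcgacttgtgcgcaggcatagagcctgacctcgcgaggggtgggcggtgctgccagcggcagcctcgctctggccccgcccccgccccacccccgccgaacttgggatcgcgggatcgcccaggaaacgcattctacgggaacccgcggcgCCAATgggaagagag
Bub1b: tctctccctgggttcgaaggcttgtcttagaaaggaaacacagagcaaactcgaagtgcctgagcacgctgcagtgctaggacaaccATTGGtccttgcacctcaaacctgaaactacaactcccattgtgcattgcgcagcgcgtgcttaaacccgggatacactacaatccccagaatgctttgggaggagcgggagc
Kif23: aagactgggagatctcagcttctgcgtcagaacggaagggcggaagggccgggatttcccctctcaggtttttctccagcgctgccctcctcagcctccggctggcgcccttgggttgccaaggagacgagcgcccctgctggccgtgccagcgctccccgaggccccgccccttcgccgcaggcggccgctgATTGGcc
Top2a: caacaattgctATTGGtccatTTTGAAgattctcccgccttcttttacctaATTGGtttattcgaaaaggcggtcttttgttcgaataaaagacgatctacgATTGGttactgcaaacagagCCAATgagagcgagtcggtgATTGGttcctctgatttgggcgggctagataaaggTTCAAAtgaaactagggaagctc

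The Top2a stretch held 5 CCAAT boxes and 2 CHR matches, and the Mcm3 stretch held 3 CCAAT boxes. Rrm1 held 2 CCAAT boxes with an E2F match between them, and Ccnb1, Bub1b and Kif23 held 1 CCAAT box each. No 2 matches in these stretches shared a base. RefSeq promoters (250 bases before to 50 after the start) were matched for 30 of the 37 members. Beyond the printed stretches, these windows held a CHR in Bub1b and Kif23 and 2 E2F matches in Mcm3. They also held a further CCAAT box in Ccnb1 and in Top2a. A CCAAT box lay in 25 of the 30 (83.3%), against 38.4% of 11467 tested genes with a promoter entry and 37.9% of all 27025 entries. A CHR lay in 15 (50%, against 12.7% and 18.1%), and all 15 also held a CCAAT box, a combination found in 5.18% of the tested genes. An E2F match lay in 7 (23.3%, against 8.95% and 5.40%). The elements divided by role: 5 of the 7 matched licensing and fork genes held an E2F match and 1 held a CHR, whereas no matched kinesin or spindle gene held an E2F match and 4 of 6 held a CHR. These are letter matches, described without a test.

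More members had their highest mean in BM, and their lowest mean in Blood, than in any other tissue. The mean of 20 members was highest in BM, of 8 in Intestine, of 5 in Skin, of 3 in Spleen and of 1 in Lung, and that of none was highest in Blood. Conversely, 18 members had their lowest mean in Blood, 8 in Skin, 6 in Intestine and 5 in Lung. The summed value of the 37 was 854 to 1053 in the BM libraries, 316 to 402 in Blood, 531 to 663 in Spleen, 344 to 543 in Lung, 496 to 599 in Intestine and 368 to 746 in Skin. The Blood range overlapped those of Lung and Skin. Between 13 and 21 members reached a value of 1 in a Blood library, against 25 to 37 in BM and 27 to 36 in Spleen. The counts were 19 to 33 in Lung, 23 to 31 in Intestine and 8 to 25 in Skin. The share of all tested genes that reached 1 was 68.6% to 73.0% in Blood and 55.1% to 77.1% in BM. It was 71.1% to 78.9% in Spleen, 72.4% to 80.8% in Lung, 74.4% to 83.1% in Intestine and 44.1% to 66.4% in Skin. The 3 BM libraries were uneven: all 37 members reached 1 in replicate 1, but only 25 did in replicate 2. The 12 below 1 there came from several roles (Mcm2, Mcm5, Cdc6, Pcna, Cdk1, Aurka, Aurkb, Plk1, Cdca8, Bub1, Kif20a and Tpx2), while Rrm2, Mcm7 and Kif23 were higher in replicate 2 than in the other BM libraries.

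**Figure D1:**
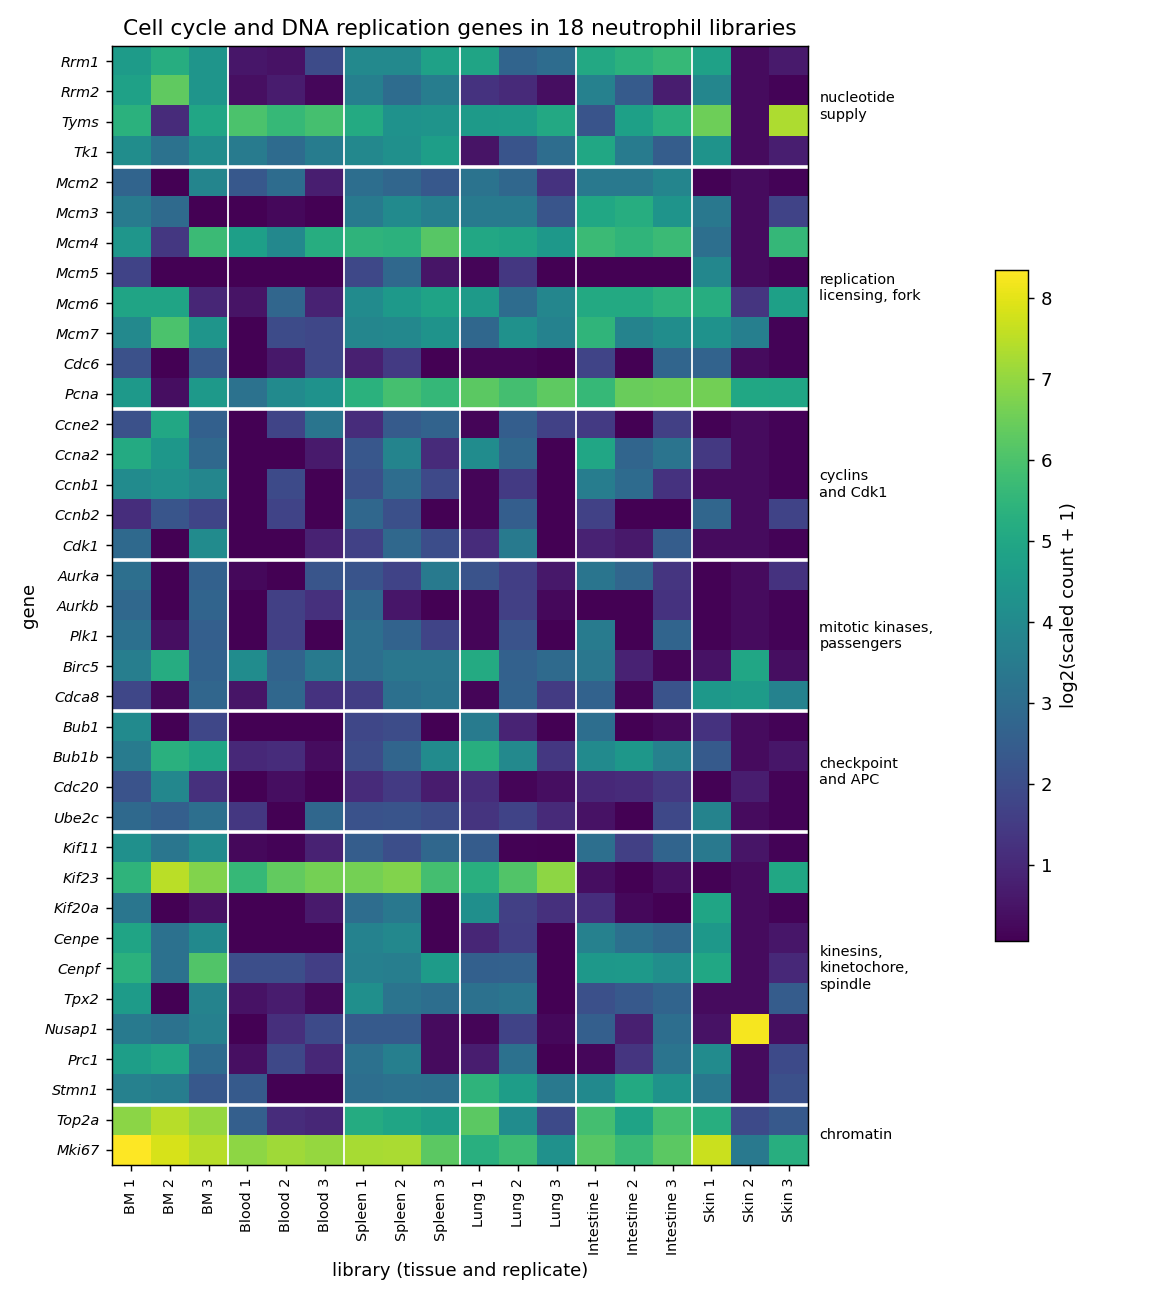
Level of each of the 37 genes (rows, grouped by role) in each of the 18 libraries (columns), as log2(scaled count + 1); brighter colours are higher. The Blood columns are dark for most rows and brightest for Mki67, Kif23 and Tyms, and Skin replicate 2 is dark for most rows and brightest for Nusap1.

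A moderated F test (limma on log2(value + 1), 1 weight per tissue, Benjamini-Hochberg over all 16157 genes) found a difference between tissues for 18 of the 37 members, where 40.4% of all tested genes passed. The share of members is therefore near that of genes in general. The calls were 6 of 9 kinesin, kinetochore and spindle genes, 4 of 8 licensing and fork genes, 2 of 4 nucleotide supply genes, 2 of 5 cyclins and Cdk1, 2 of 4 checkpoint genes, both chromatin genes and none of the 5 mitotic kinase and passenger genes. With Mcm5, which passed in 1 comparison of a pair of tissues only, 19 members passed some test and 18 passed none. Adjusted p-values of this test are given below as F-test p.

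Top2a encodes topoisomerase IIα, which untangles replicated chromosomes (ENSMUSG00000020914, chr11:98992943-99024189 on GRCm38). It was at 119, 176 and 129 in the 3 BM libraries and at 4.93, 1.17 and 0.966 in Blood. Spleen had 35.1, 29.4 and 24.3, Intestine 58.1, 28.4 and 59.3, Lung 75.0, 16.1 and 2.75, and Skin 37.3, 2.82 and 4.19. All BM libraries were above all others, and all Spleen and Intestine libraries were above all Blood libraries, while the lowest Lung library fell within the Blood range. Top2a was higher than in Blood by a log2 difference of 5.58 ± 0.66 (SE) in BM (adjusted p = 2.85e-05), 4.0 ± 0.69 in Intestine (5.69e-05), 3.36 ± 0.55 in Spleen (0.000308) and 2.53 ± 0.70 in Lung (0.0155). It was lower in Lung than in BM by -3.05 ± 0.80 (adjusted p = 0.0139).

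Mki67, the gene of the Ki-67 antigen that coats mitotic chromosomes (ENSMUSG00000031004, chr7:135689784-135716361), did not share that pattern. It was at 326, 231 and 174 in BM and at 123, 144 and 129 in Blood. Spleen had 153, 157 and 75.9, Lung 37.8, 52.5 and 18, Intestine 72.7, 50.2 and 75.7, and Skin 208, 9.74 and 36.9. Each Blood library thus held more Mki67 than any Lung or Intestine library. Mki67 was lower in Lung than in Blood (-1.96 ± 0.45, adjusted p = 0.00364) and lower than in BM in Lung (-2.80 ± 0.51, 0.000618) and Intestine (-1.84 ± 0.50, 0.00609). For BM minus Blood the difference of 0.84 ± 0.42 did not pass (adjusted p = 0.346), although the 3 BM libraries lay above the 3 Blood libraries. Per kilobase of exon, Mki67 led the members in both BM (mean 24.2) and Blood (13.1). Top2a was next in BM (15.7) and Kif23 next in Blood (9.55).

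Among the nucleotide supply genes, both subunits of ribonucleotide reductase differed between tissues. The small subunit Rrm2, whose level limits the enzyme in S phase (ENSMUSG00000020649, chr12:24708241-24714146), was at 27.0, 80.1 and 20.0 in BM and at 0.313, 0.599 and 0.157 in Blood. Spleen had 11.4, 6.87 and 11, Lung 1.44, 1.07 and 0.281, Intestine 12.1, 4.36 and 0.653, and Skin 13.5 with the other two listed at 0. The order BM, Spleen, Blood held without overlap between libraries. Rrm2 was higher than in Blood in BM (4.75 ± 0.72, adjusted p = 0.000491) and Spleen (2.97 ± 0.60, 0.00235). It was lower than in BM in Lung (-4.28 ± 0.87, 0.00175) and Intestine (-2.89 ± 0.85, 0.0111).

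The large subunit Rrm1 (ENSMUSG00000030978, chr7:102441695-102469771) was at 23.4, 36.1 and 19.9 in BM and at 0.479, 0.389 and 2.86 in Blood. Spleen had 14.5, 14.7 and 27.0, Lung 29.1, 5.60 and 6.96, Intestine 32.5, 39.7 and 48.1, and Skin 27.1, 0.216 and 0.585. Its Intestine and BM values overlapped, and no Lung library was in the Blood range. It was higher than in Blood in Intestine (4.35 ± 0.68, adjusted p = 1.86e-05), BM (3.74 ± 0.65, 0.00235), Spleen (3.25 ± 0.54, 0.000407) and Lung (2.55 ± 0.70, 0.0138). Neither thymidylate enzyme passed the F test. Tyms, thymidylate synthase, had means of 56.9 ± 8.17 (SD, n = 3) in Blood and 22.9 to 26.1 in BM, Spleen, Lung and Intestine, and Tk1, a thymidine kinase, had tissue means of 3.73 to 18.9. The 3 Blood libraries held more Tyms than every library of those 4 tissues, with no pairwise call.

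The MCM subunits form the replicative helicase. Mcm3 (ENSMUSG00000041859, chr1:20802968-20820312) was listed at 0 in 2 Blood libraries and at 0.163 in the other. Spleen had 10.2, 15.4 and 11.5, Lung 9.80, 9.80 and 3.76, and Intestine 31.0, 36.3 and 19.5. BM was uneven, at 10.5, 6.57 and 0.0483 (0 reads), and Skin had 9.49, 0.216 and 2.33. Every Intestine library was above every library of the other 5 tissues. Mcm3 was higher than in Blood in Intestine (4.74 ± 0.75, adjusted p = 1.99e-05), Spleen (3.60 ± 0.60, 0.00035) and Lung (2.91 ± 0.76, 0.0104), and higher in Intestine than in BM (2.69 ± 0.85, 0.0172). In BM the difference from Blood was 2.05 ± 0.72 (adjusted p = 0.136).

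Mcm6 was at 28.6, 29.1 and 0.918 in BM and at 0.419, 5.93 and 0.781 in Blood. Spleen had 15.8, 22.0 and 28.2, Lung 22.6, 7.02 and 13.6, Intestine 33.0, 33.2 and 41.3, and Skin 36.7, 1.51 and 26.1. It was higher than in Blood in Intestine (3.82 ± 0.83, adjusted p = 0.000732) and Spleen (3.11 ± 0.67, 0.00389). Mcm7 was at 14.4, 62.8 and 19.8 in BM and at 0.0598, 2.88 and 2.50 in Blood. Spleen had 13.4, 14.4 and 19.1, Lung 6.15, 18 and 12.2, Intestine 44.2, 12.7 and 16.5, and Skin 18.6, 11.5 and 0.0930. All BM, Spleen, Lung and Intestine libraries were above Blood, with log2 differences of 3.49 ± 0.69, 2.76 ± 0.57, 2.32 ± 0.73 and 3.18 ± 0.72 (adjusted p = 0.00551, 0.00295, 0.0325 and 0.000977).

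Pcna, the sliding clamp (ENSMUSG00000027342, chr2:132249162-132253314), ran against most of the members. It was at 22.4, 0.286 and 22.5 in BM and at 8.07, 15.3 and 18.7 in Blood. Spleen had 39.6, 59.2 and 47.3, Lung 75.7, 57.6 and 78.0, Intestine 48.1, 86.9 and 91.0, and Skin 94.6, 30.9 and 30.2. All 12 libraries from these 4 tissues were above all 6 from BM and Blood. Relative to Blood it was higher in Intestine (2.36 ± 0.68, adjusted p = 0.00731), Lung (2.31 ± 0.69, 0.0245) and Spleen (1.78 ± 0.54, 0.042). Relative to BM it was higher in Intestine (3.05 ± 0.77, 0.0036), Lung (2.99 ± 0.78, 0.0143) and Spleen (2.46 ± 0.65, 0.04). The 2 Spleen calls were each kept in only 18 of 33 alternative fits.

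Of the remaining licensing genes, Mcm5 was at 2.58, 6.30 and 0.438 in Spleen and listed at 0 in all Blood and Intestine libraries. Set against a floor of 3 reads per library, its Spleen mean was at least 9.34-fold higher than in Blood. The fitted difference of 1.67 ± 0.51 (adjusted p = 0.0436) was kept in 15 of 31 alternatives. Mcm2, Mcm4 and the loading factor Cdc6 passed no test. Mcm4 had tissue means of 18.3 to 52.3, Mcm2 of 3.91 to 10.8 outside Skin, where it was listed at 0 in all libraries, and Cdc6 of 0.102 to 2.74.

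Ccnb1 encodes cyclin B1, the partner of Cdk1 at entry into mitosis (ENSMUSG00000041431, chr13:100778650-100786570). It was at 15.6, 18.2 and 13.5 in BM and at 0.0598, 2.79 and 0.0521 in Blood, where 2 libraries had no reads. Spleen had 3.21, 7.10 and 2.71, Lung 0.131, 1.79 and 0.0561, Intestine 10.8, 6.85 and 1.42, and Skin 0.222, 0.216 and 0.0930. The lowest BM library exceeded the highest library of every other tissue. Ccnb1 was higher than in Blood in BM (3.37 ± 0.71, adjusted p = 0.00885) and Intestine (1.91 ± 0.74, 0.0417, kept in 18 of 33 alternatives), and lower in Lung than in BM (-3.48 ± 0.85, 0.00873).

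Ccna2, cyclin A2, which acts in S phase and early mitosis, was at 34.4, 20.9 and 6.25 in BM, 0.0598, 0.0544 and 0.573 in Blood and 30.5, 5.81 and 8.43 in Intestine. Spleen had 3.93, 12.9 and 1.09, Lung 16.2, 6.07 and 0.0561, and Skin 1.69, 0.216 and 0.0930. It was higher than in Blood in BM (3.88 ± 0.87, adjusted p = 0.0135) and Intestine (3.39 ± 0.91, 0.00428). Cdk1, the kinase itself, was at 6.42, 0.0571 and 15.5 in BM and at 0.0598, 0.0544 and 0.781 in Blood. Spleen had 2.13, 6.22 and 3.07, Lung 1.18, 9.88 and 0.0561, Intestine 0.798, 0.539 and 4.65, and Skin 0.221, 0.216 and 0.0930. BM replicate 2 had no Cdk1 reads. Its largest difference from Blood was 2.01 ± 0.79 in BM (adjusted p = 0.191), and the F-test p was 0.157. Cyclins B2 and E2 (Ccnb2, Ccne2) passed no test, with tissue means of 0.754 to 3.14 and 0.128 to 13.4.

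None of the 5 mitotic kinase and passenger genes passed a test. Plk1, the Polo kinase, was at 7.73, 0.286 and 4.98 in BM, 0.0598, 2.12 and 0.0521 in Blood and 7.50, 5.54 and 2.41 in Spleen. Lung had 0.131, 3.53 and 0.0561, Intestine 10.3, 0.0415 and 5.64, and Skin was at 0 reads throughout. The 3 Spleen libraries lay above the 3 Blood libraries, with a difference of 1.92 ± 0.66 (adjusted p = 0.0727). Birc5, the passenger protein survivin, was at 11.1, 35.3 and 5.36 in BM and 15.9, 5.46 and 10.00 in Blood, which overlapped. Spleen had 7.43, 9.14 and 9.17, Lung 33.9, 5.14 and 6.59, Intestine 9.07, 0.790 and 0.124, and Skin 0.372, 30.5 and 0.280. Its F-test p was 0.257. Aurka, Aurkb and Cdca8, the Aurora kinases and a passenger subunit, had tissue means below 20 throughout (0.128 to 19.0).

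At the spindle checkpoint, Bub1b, which encodes the kinase-like inhibitor BubR1 (ENSMUSG00000040084, chr2:118598211-118641591), was at 10.3, 38.9 and 29.7 in BM and at 1.02, 1.14 and 0.260 in Blood. Spleen had 2.98, 5.85 and 15.7, Lung 37, 14.6 and 1.63, Intestine 15.3, 20.8 and 12.0, and Skin 4.34, 0.216 and 0.465. Every library of BM, Spleen, Lung and Intestine was above every Blood library. The differences from Blood were 3.77 ± 0.77 in BM (adjusted p = 0.00721), 3.24 ± 0.80 in Intestine (0.00234), 2.72 ± 0.82 in Lung (0.0255) and 2.13 ± 0.64 in Spleen (0.0402, kept in 19 of 33 alternatives). Cdc20, the activator of the anaphase-promoting complex, was low everywhere, at 3.50, 13.8 and 1.3 in BM and at 0.0598, 0.272 and 0.0521 in Blood. Spleen had 1.12, 1.75 and 0.615, Lung 1.18, 0.119 and 0.286, Intestine 1.01, 1.12 and 1.73, and Skin 0.0736, 0.649 and 0.0930. It was higher in BM than in Blood (2.25 ± 0.55, adjusted p = 0.024). Its F-test p of 0.0367 held in 20 of 30 alternatives. Bub1, listed at 0 in all Blood libraries and at 15.3, 0.0571 and 2.56 in BM, and Ube2c, the ubiquitin-conjugating enzyme of the complex, passed no test.

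Kif23, a kinesin of the central spindle that is needed for cytokinesis (ENSMUSG00000032254, chr9:61915905-61946774), had the smallest F-test p of all members (1.87e-07) and a pattern of its own. It was at 43.0, 178 and 108 in BM and at 48.0, 81.9 and 96.6 in Blood. Spleen had 98.3, 110.0 and 57.9, and Lung 38.5, 67.9 and 121. Intestine had 0.300, 0.0415 and 0.311, and Skin 0.0736, 0.216 and 30.8. The first 4 tissues overlapped, and every Intestine and Skin library was below all of their libraries. Kif23 was lower than in Blood in Intestine (-5.92 ± 0.59, adjusted p = 4.65e-08) and Skin (-4.41 ± 1.08, 0.0185), and lower than in BM in Intestine (-6.29 ± 0.67, 2.82e-07) and Skin (-4.78 ± 1.13, 0.0157). The Intestine differences held in all 33 alternatives, the Skin differences in 25 and 27 of 31. The neutrophil identity sum was lowest in Intestine as well, and its part in the Kif23 difference was not tested.

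Kif11, the kinesin that separates the spindle poles, was at 17.4, 9.03 and 15.8 in BM and at 0.181, 0.110 and 0.785 in Blood. Spleen had 4.68, 3.12 and 6.16, Lung 4.57, 0.0794 and 0.0561, Intestine 7.45, 2.08 and 5.64, and Skin 9.57, 0.433 and 0.0930. It was higher than in Blood in BM (3.46 ± 0.68, adjusted p = 0.00564), Intestine (2.07 ± 0.71, 0.023) and Spleen (2.05 ± 0.57, 0.0251), and lower in Lung than in BM (-2.98 ± 0.82, 0.0203). Its BM libraries lay above all Blood, Spleen, Lung and Intestine libraries.

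Cenpe, a kinetochore motor, had no reads in any Blood library and was at 29.1, 7.94 and 14.8 in BM. Spleen had 12.3, 14.3 and 0.0473, Lung 0.915, 2.02 and 0.0561, Intestine 12.0, 7.68 and 6.10, and Skin 21.4, 0.216 and 0.465. Against the 3-read floor per library its mean was at least 52.0-fold higher in BM than in Blood, at least 26.7-fold in Spleen and at least 25.8-fold in Intestine (adjusted p = 0.0155, 0.0396 and 0.00999). The Spleen call was kept in 21 of 32 alternatives. Cenpf, another kinetochore protein, was at 40.4, 7.85 and 67.1 in BM and at 3.15, 3.10 and 2.04 in Blood. Spleen had 11.7, 11.3 and 23.4, Lung 5.10, 5.26 and 0.0561, Intestine 21.2, 22.4 and 16.8, and Skin 30.8, 0.216 and 1.02. All BM, Spleen and Intestine libraries were above Blood. The differences were 2.97 ± 0.73 (adjusted p = 0.0255), 2.07 ± 0.61 (0.0352) and 2.49 ± 0.76 (0.0111), and Lung was lower than BM by -3.09 ± 0.88 (0.0241). The BM and Spleen calls of Cenpf against Blood were kept in 23 and 21 of 33 alternatives.

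Tpx2, which targets Aurora A to the spindle, was at 23.3, 0.0571 and 12.5 in BM and at 0.364, 0.611 and 0.164 in Blood. Spleen had 17.3, 8.41 and 7.28, Lung 7.97, 8.61 and 0.0561, Intestine 3.25, 4.19 and 5.61, and Skin 0.221, 0.216 and 4.56. It was higher in Spleen than in Blood (3.04 ± 0.72, adjusted p = 0.0085). In BM, where replicate 2 had no reads, the difference of 2.36 ± 0.86 did not pass (0.155). Its F-test p of 0.0277 held in 22 of 31 alternatives.

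Stmn1, the microtubule destabiliser stathmin (ENSMUSG00000028832, chr4:134468320-134473843), was highest outside the marrow. It was at 42.5, 24.5 and 9.71 in Lung and at 14.8, 33.1 and 19.0 in Intestine. BM had 11.9, 10.8 and 4.11, Spleen 7.38, 7.96 and 7.43, Blood 4.25, 0.0544 and 0.0521, and Skin 9.49, 0.216 and 3.26. Spleen, Lung and Intestine libraries were all above Blood. The differences from Blood were 3.66 ± 0.77 in Lung (adjusted p = 0.00179), 3.62 ± 0.76 in Intestine (0.000464) and 2.25 ± 0.60 in Spleen (0.02). Kif20a, Nusap1 and Prc1, which act on spindle microtubules, passed no test. Nusap1, singled out after its values were seen, was at 303 in Skin replicate 2 and below 12 in the other 17 libraries (0.0598 to 11.8).

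**Figure D2:**
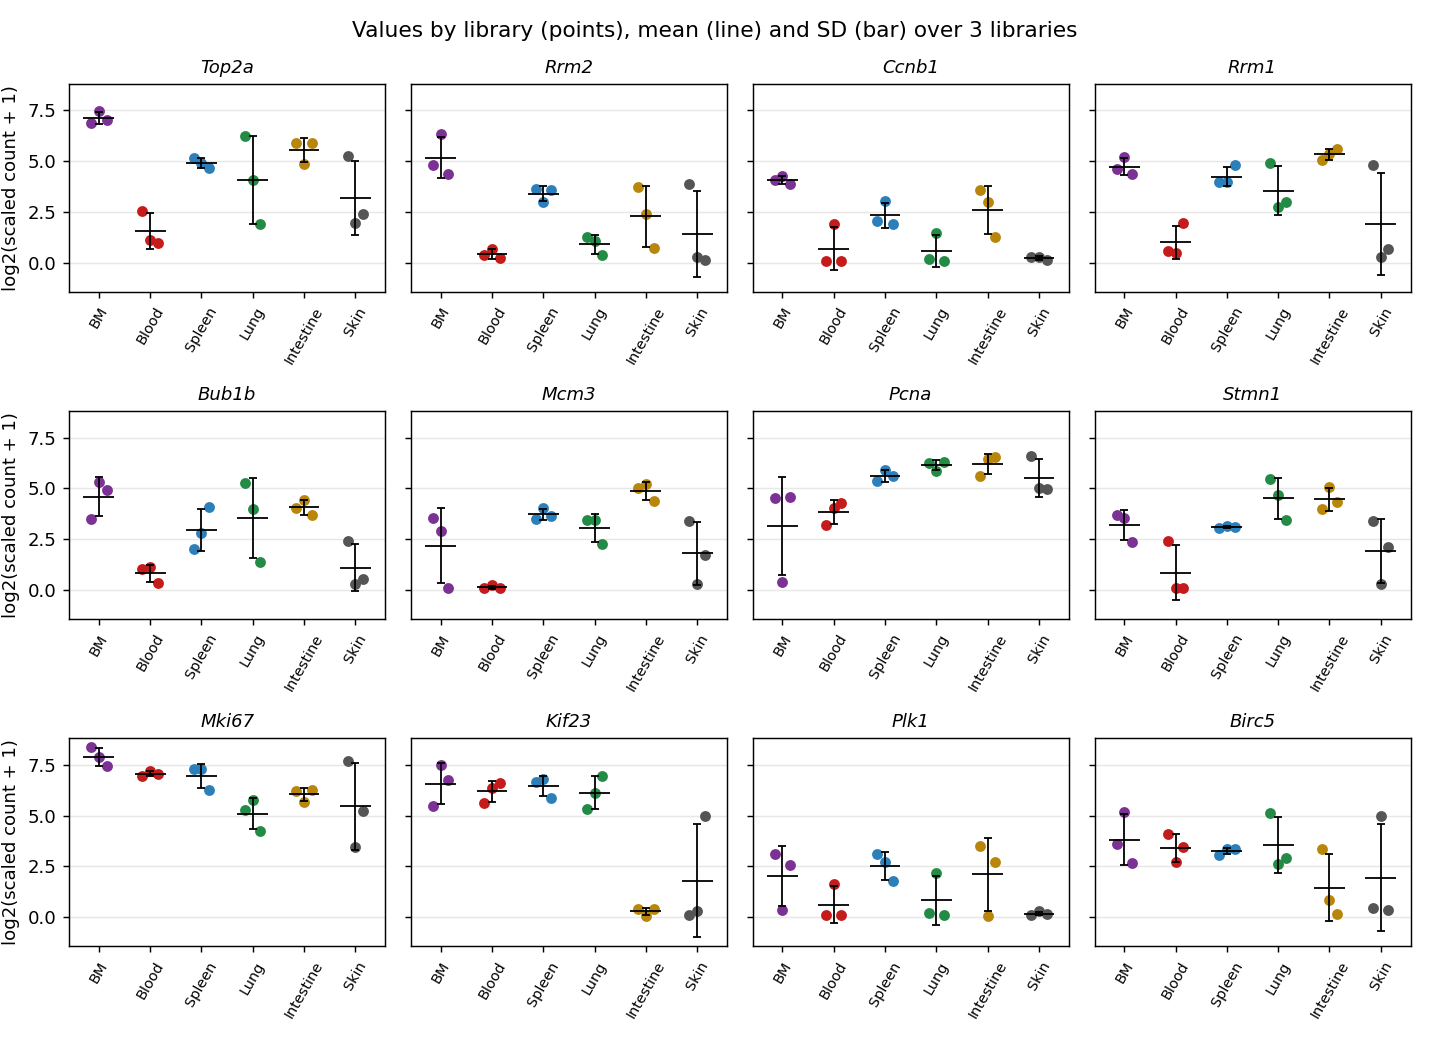
Values of 12 of the genes by tissue, as log2(scaled count + 1): points are libraries, the line is the mean and the bar the SD over 3 libraries. Top2a, Rrm2 and Ccnb1 are highest in BM, Pcna and Stmn1 are higher in Lung and Intestine than in Blood, Mki67 and Kif23 are high in Blood, and Kif23 is near 0 in all Intestine libraries.

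Beyond single genes, the tissue pairs were compared over the whole set. Counts under alternative fits or at an unadjusted p under 0.05 are given here and further below without the matching share of all genes. Such counts, and changes in them, therefore cannot be told apart from those of genes in general. The comparisons with Blood share the same 3 Blood libraries, and those with BM the same 3 BM libraries, so their results are not independent of each other.

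Between BM and Blood, 11 members were higher in BM, where 1.62% of all tested genes were, and 0 were lower (1.26% of all genes; limma, with 1 member lower at an unadjusted p under 0.05 and 0 by voom). They were Top2a, Rrm1, Rrm2, Mcm7, Ccna2, Ccnb1, Bub1b, Cdc20, Kif11, Cenpe and Cenpf. The median log2 difference of the 37 members was 1.90, against -0.004 over all tested genes, and 34 of 37 differences were above 0. The 3 BM libraries were all above the 3 Blood libraries for 14 members (9.37% of all genes) and all below for 1 (9.93%). The count depends on the fit: it was 5 without BM replicate 1, 12 without BM replicate 2, 2 with 1 spread for all libraries and 0 when only the 6 libraries were fitted with the gene filter kept. Of a list of neutrophil precursor markers, 7 of 13 tested genes were higher in BM as well. Their 16 listed genes summed to 22253 to 30317 in BM and 1959.9 to 4695 in Blood. Ltf, Ngp, Lcn2, Camp and Chil3 made up most of the BM sum, each at 2248 or more in every BM library. Elane, Prtn3 and Ctsg had no reads in Blood or in BM replicate 3, and were at 9.66 or less in the other BM libraries. Cd34 went the other way, with every Blood library above every BM library. B-cell markers summed to 169 to 768 in BM and 111 to 170.3 in Blood, with 5 of 13 higher in BM, and erythroid markers to 84.7 to 155 and 2922 to 8905, with 5 of 8 lower. The part of these cells in the result was not tested.

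Between Spleen and Blood, 14 members passed, where 8.47% of all tested genes did. All 14 were higher in Spleen (5.94% of all genes) and 0 were lower (2.53%; limma, 0 also at an unadjusted p under 0.05, and 0 by voom). The 14 comprised Mcm3, Mcm5, Mcm6, Mcm7 and Pcna, both reductase subunits, Top2a, Bub1b, Kif11, Cenpe, Cenpf, Tpx2 and Stmn1. The median difference was 1.63, against 0.03 over all genes. For 19 members every Spleen library was above every Blood library (13.5% of all genes), and for 1 every one was below (15.7%). No cyclin was among the 14: Ccna2 (2.12 ± 0.72, adjusted p = 0.0715) and Ccnb1 (1.63 ± 0.59, 0.0911) missed the threshold. The count was 7 without Spleen replicate 1 or 2, 8 and 9 without Blood replicates 1 and 2, 9 with no gene filter and 4 when only the 6 libraries were fitted with the filter kept. With 1 spread for all libraries no member passed. B-cell markers moved in the same direction: their 14 genes summed to 2432 to 4464 in Spleen and 111 to 170.3 in Blood, with Blk and Vpreb3 among those at 0 in Blood, and 12 of 13 tested passed. The T and NK cell markers summed to 150 to 167 in Spleen and 45.8 to 68.7 in Blood, with 8 of 14 higher in Spleen, and the erythroid markers to 30.9 to 109 and 2922 to 8905, with 6 of 8 lower. Their part in the result was not tested.

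Between Lung and Blood, 7 members were higher in Lung (10.7% of all genes), namely Rrm1, Mcm3, Mcm7, Pcna, Bub1b, Stmn1 and Top2a, and 1, Mki67, was lower (5.16%). The median difference was 0.40, against 0.03 over all genes, and ranged from 0.01 to 0.92 over the alternatives. The count of 8 fell to 2 without Lung replicate 2 and 4 without Lung replicate 1, and was 1 with 1 spread for all libraries. Other counts were 4 and 3 when only the 6 libraries were fitted, and 5 with no gene filter or with quantile normalization. The Lung libraries differed among themselves: Top2a, Bub1b, Ccna2, Kif11 and Stmn1, singled out after their values were seen, were highest in replicate 1 and lowest in replicate 3, while Kif23 was the reverse. The endothelial marker sum was 3116, 2010.3 and 814 in replicates 1, 2 and 3, the B-cell sum 1039.8, 862 and 315, and the neutrophil identity sum 7949.9, 13215.5 and 25361. What these cells contributed was not tested.

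Between Intestine and Blood, 13 members were higher in Intestine, but 23.7% of all tested genes were too, and 1, Kif23, was lower, as were 17.6% of all genes. The 13 were Rrm1, Mcm3, Mcm6, Mcm7, Pcna, Ccna2, Ccnb1, Bub1b, Kif11, Cenpe, Cenpf, Stmn1 and Top2a. The median difference was 1.08 (0.12 over all genes), and 17 members had all Intestine libraries above Blood (26% of all genes) and 3 all below (24.1%). This count stayed between 11 and 17 for both directions together in all 33 alternatives. Fibroblast and muscle markers summed to 6513 to 13624 in Intestine and 61.9 to 79.9 in Blood, endothelial markers to 582 to 1884 and 65.8 to 66.5, and macrophage and monocyte markers to 1145 to 2097 and 619.7 to 1039.7. All 10 fibroblast and muscle markers and all 10 endothelial markers passed the test. Intestinal epithelial markers summed to 191 to 654 in Intestine and 13.7 to 45.7 in Blood, with 9 of 11 higher and 1 lower. The part of such cells in the result was not tested.

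In Skin, only Kif23 passed against Blood (5.41% of all genes passed, 3.76% lower) and against BM (5.42%, 3.7% lower), lower in both. No member was higher than in Blood (1.65% of all genes) or than in BM (1.71%), also at an unadjusted p under 0.05 or by voom. Relative to BM, 7 members were lower in Skin at an unadjusted p under 0.05 (limma), with no share of all genes to set beside them. The median difference from BM was -1.89, against -0.22 over all genes, and 6 of 37 differences were above 0. For 9 members all Skin libraries were below BM (14.2% of all genes), and for 2 all were above (15%). The Skin to Blood call was lost without Skin replicate 1 or 2 and the Skin to BM call without replicate 1, and with 1 spread for all libraries 9 members were lower in Skin than in BM. The libraries differed widely: 25 members reached 1 in replicate 1, 8 in replicate 2 and 15 in replicate 3. Of all tested genes, 65.8%, 44.1% and 66.4% reached 1 in these libraries. The predicted gene Gm10800, singled out after its values were seen, took 23.7%, 19.6% and 11.2% of their scaled counts, against 0.42% to 3.60% in the other 15 libraries. Epidermal markers summed to 15693, 7196 and 1271 in the 3, against 4.78 to 15.8 in Blood, and the neutrophil identity sum was 2206, 28559 and 14323. Their part in the members' values was not tested.

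Relative to BM, Spleen differed in 1 member, Pcna, which was higher (1.62% of all genes were higher and 1.38% lower). At an unadjusted p under 0.05, 3 members were higher and 6 lower, with no share of all genes to set beside them. The median difference was -0.56, against 0.12 over all genes. For 1 member all Spleen libraries were above BM (10.1% of all genes), and for 7 all were below (13.6%). No member passed with 1 spread for all libraries, without Skin, BM replicate 2, Spleen replicate 1 or 2 or Lung replicate 2, with a pseudocount of 0.25, with no gene filter or with no trend in the variance. By voom 1 other member, not Pcna, was lower. Between Lung and BM, 7 members passed, where 9.69% of all genes did: 6 were lower in Lung (2.48%), namely Rrm2, Ccnb1, Kif11, Cenpf, Top2a and Mki67, and Pcna was higher (7.21%). The median difference was -1.17, against 0.06 over all genes. All Lung libraries were below BM for 11 members (11.5% of all genes) and above BM for 1 (14.2%). The count of 7 was 3 without Lung replicate 2, 4 without Lung replicate 3, 4 with 1 spread for all libraries and 2 when only the 6 libraries were fitted with the filter kept. Between Intestine and BM, 5 members passed, where 31.7% of all genes did: Kif23, Rrm2 and Mki67 were lower in Intestine (13.3%) and Pcna and Mcm3 were higher (18.4%). The median difference was -0.56, against 0.16 over all genes. For 9 members all Intestine libraries were below BM, a share near the 20.2% of all genes. For 4 members all were above BM (22.5% of all genes). That count of 5 was 11 after quantile normalization, 10 of them lower, and 3 when only the 6 libraries were fitted with the filter kept.

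**Figure D3:**
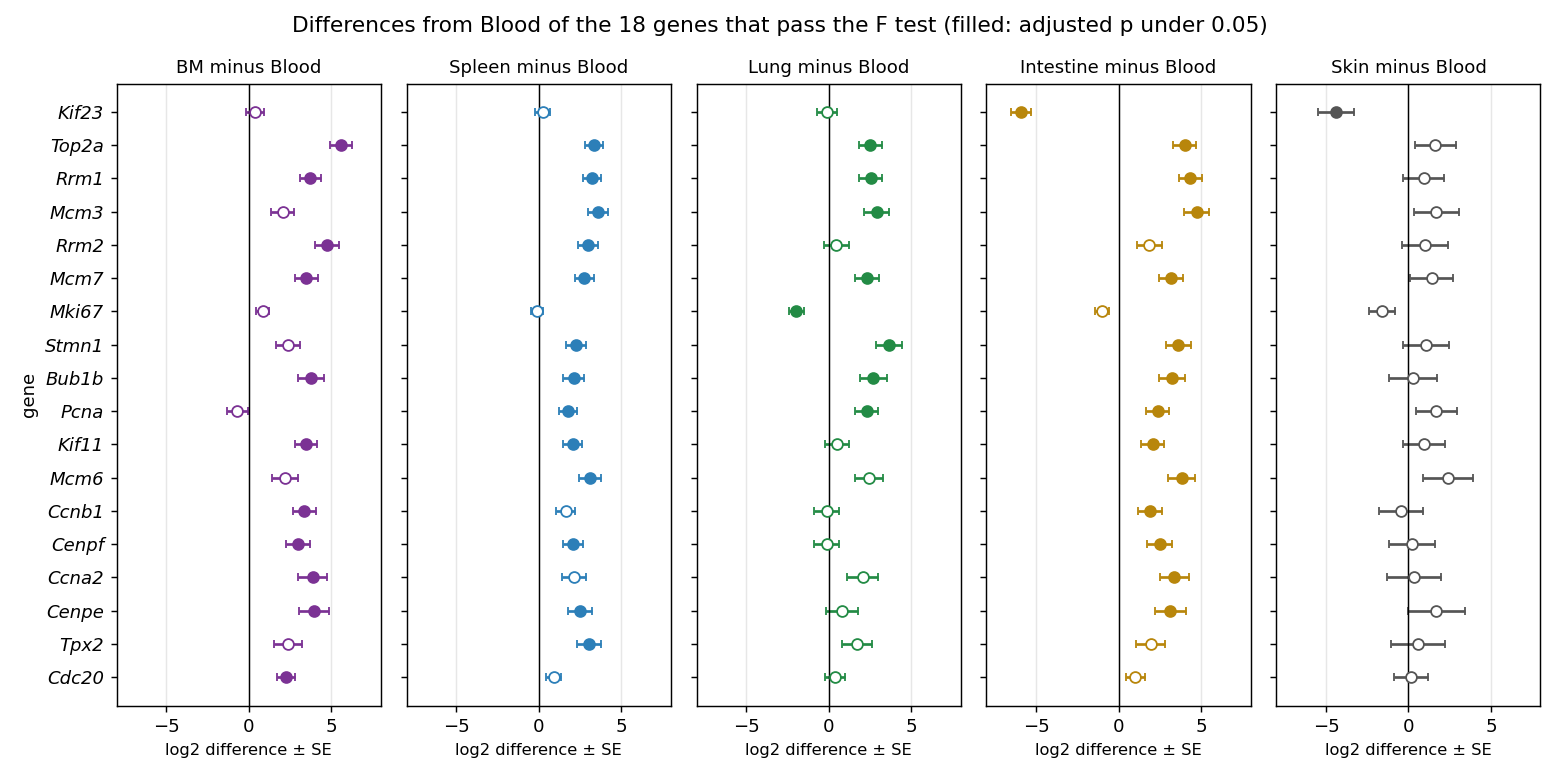
Log2 difference from Blood (x axis, with SE) of the 18 genes that passed the F test, in 5 tissues; filled points have an adjusted p under 0.05. Most points lie to the right of 0 in BM, Spleen and Intestine, Kif23 lies far to the left in Intestine and Skin, and Skin errors are the widest.

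**Figure D4:**
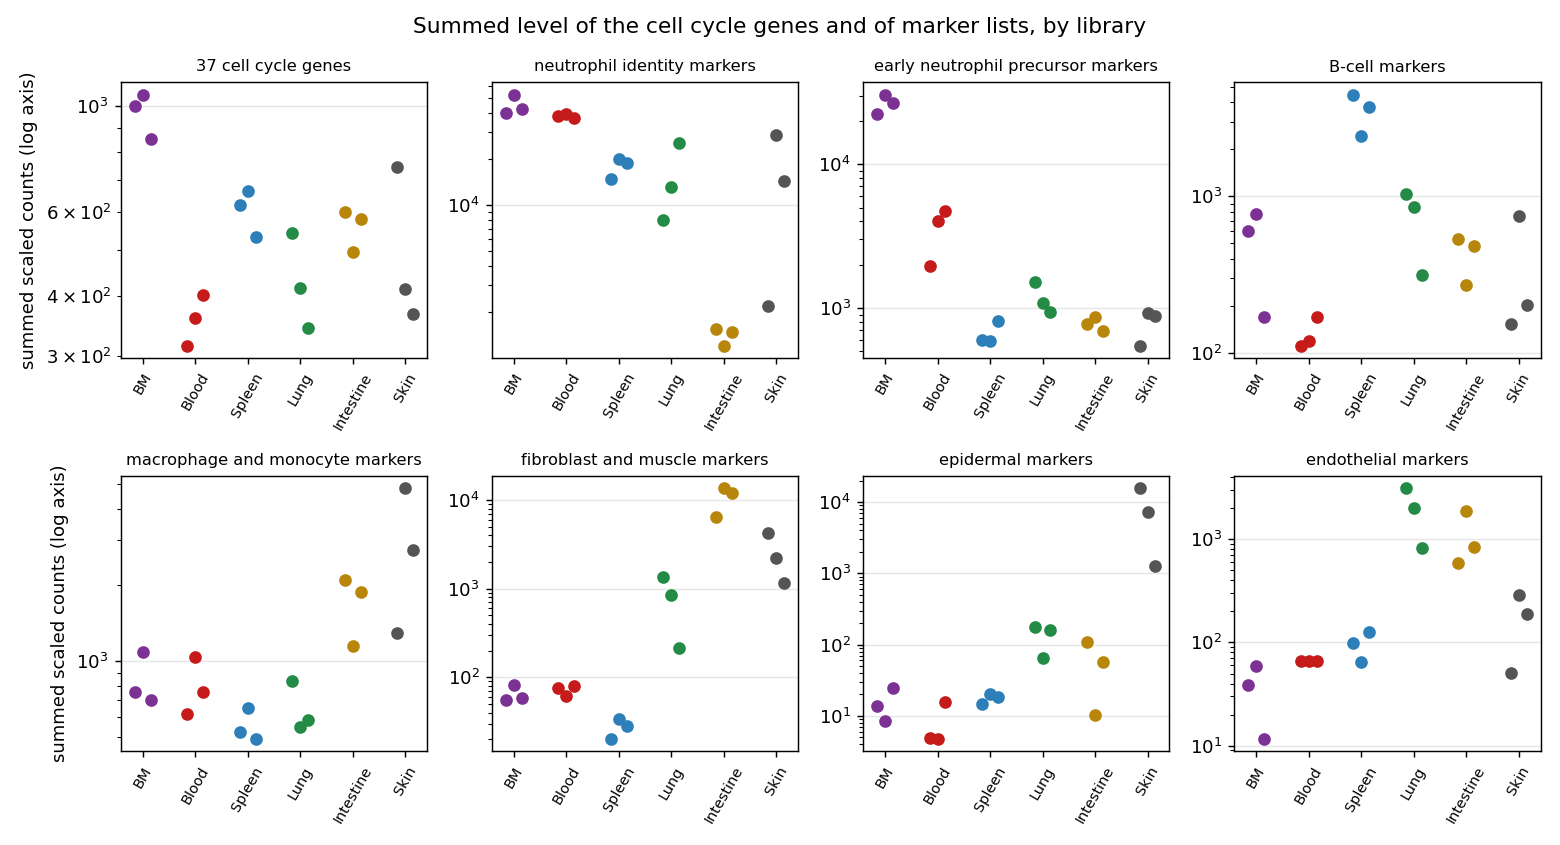
Summed scaled counts (log axis) of the 37 genes and of 7 marker lists in each library. The 37 genes sum to 316 to 402 in Blood and 854 to 1053 in BM. B-cell markers peak in Spleen, fibroblast and muscle markers in Intestine, epidermal markers in Skin and endothelial markers in Lung. The list headed early neutrophil precursor markers peaks in BM, where Ltf, Ngp, Lcn2, Camp and Chil3 make up most of its sum.

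Other genes of the pathway were counted from lists that leave the 37 out. Of 39 tested DNA replication genes, 12 passed the F test, a smaller share than the 40.4% of all genes. In Spleen, 12 of the 39 were higher than in Blood (5.94% of all genes) and 0 lower. The counts were 2 higher and 1 lower in BM (1.62% and 1.26% of all genes), 8 and 0 in Intestine (23.7% and 17.6%), and 4 and 0 in Lung (10.7% and 5.16%). The Spleen count was 5 without Spleen replicate 2, 6 without Spleen replicate 1 or Blood replicate 1 or 2, and 0 with 1 spread for all libraries. At an unadjusted p under 0.05 in limma, 0, 0 and 2 of them were lower in Spleen, Intestine and Lung. Rpa1, a subunit of the single-strand binding protein RPA, had a mean of 0.656 ± 0.451 (SD, n = 3) in Blood, 28.5 ± 10.8 in Spleen and 44.5 ± 9.87 in Intestine. The F-test p of Rpa1 was 4.84e-05. Pola1, the catalytic subunit of polymerase α, averaged 5.48 ± 4.50 in Blood, 16.3 ± 2.76 in Spleen and 46.8 ± 15.9 in Intestine. Lig1, the replicative DNA ligase, averaged 0.0902 in Blood, 9.99 ± 4.78 in Spleen and 20.0 ± 7.98 in Intestine. Dut, which removes dUTP, had no reads in Blood and averaged 12.5 ± 5.26 in BM and 6.87 ± 4.05 in Spleen.

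Of 48 tested mitosis genes outside the set, 15 passed the F test, again a smaller share than the 40.4% of all genes. Relative to Blood, 5 were higher and 0 lower in BM (1.62% and 1.26% of all genes; limma, 1 lower at an unadjusted p under 0.05), and 7 were higher and 1 lower in Spleen (5.94% and 2.53%). Relative to BM, 6 were lower in Lung (2.48% of all genes) and 9 in Intestine (13.3%), and 0 were higher in either (limma, 0 and 1 at an unadjusted p under 0.05). With 1 spread for all libraries none of the 48 passed between BM or Spleen and Blood. The count between BM and Blood was 2 without BM replicate 1 or 3 and 10 without BM replicate 2, and the 8 calls between Spleen and Blood became 5, 2 and 3 without Blood replicate 1, Blood replicate 2 and Spleen replicate 1. The 6 calls between Lung and BM became 0 to 3 without BM replicate 1 or 3 or any Lung replicate. Ccnf, cyclin F, averaged 7.69 ± 3.62 in BM and had no reads in Blood (adjusted p = 0.00735). Kif4, a chromosome-bound kinesin, averaged 19.3 ± 15.1 in BM and 0.167 in Blood (adjusted p = 0.0045). Cdca2 averaged 9.56 ± 8.54 in BM and 0.0912 in Blood, and Ncapg, a condensin subunit, 14.2 ± 14.2 in Intestine, 7.54 ± 2.90 in Spleen and 0.542 in Blood.

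Upstream of these genes, 7 of 18 transcription factors of the cycle passed the F test, a share close to the 40.4% of all genes. E2f2, an activator E2F, averaged 133 ± 25.1 in BM, 100.3 ± 23.1 in Spleen and 85.4 ± 25.9 in Blood, against 24.9 ± 7.40 in Lung, 14.2 ± 9.89 in Intestine and 3.86 ± 5.93 in Skin. It was lower than in Blood in each of the last 3 (adjusted p = 0.024, 0.000127 and 0.00425). Of the 18 neutrophil identity genes, 11, 18 and 9 were lower there as well, and 1 was higher in Lung. Their part in the E2f2 differences was not tested. Lin54, the DNA-binding subunit of the DREAM and MuvB complexes that reads the CHR, averaged 90.3 ± 31.0 in BM and 14.5 ± 8.15 in Intestine (adjusted p = 0.00165). All 18 identity genes were also lower in Intestine than in BM, and their part in the Lin54 difference was not tested. Myb averaged 23.5 ± 15.8 in BM and 0.231 in Blood (4.03 ± 0.78, adjusted p = 0.00478). E2f6, a repressor E2F, had no reads in Blood and averaged 12.4 ± 11 in Lung and 9.47 ± 5.07 in Intestine.

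Of 8 genes for D cyclins, their kinases and related activators, 5 passed the F test, where 40.4% of all tested genes did. Ccnd1 and Ccnd3, a pair of D cyclins that drive passage through G1, ran in opposite directions. Ccnd1 averaged 2.82 ± 2.31 in Blood, 103 ± 49.9 in Lung and 214 ± 48.3 in Intestine, and Ccnd3 440 ± 39.7, 112 ± 61.0 and 58.1 ± 24.0. Ccnd1 was higher than in Blood by 4.81 ± 0.59 in Lung and 5.98 ± 0.58 in Intestine (adjusted p = 6.14e-06 and 3.03e-08), and Ccnd3 differed by -2.09 ± 0.39 and -2.98 ± 0.38 (0.000494 and 1.1e-06). All 10 endothelial markers were also higher in both tissues than in Blood, as were 8 of 10 fibroblast and muscle markers in Lung and all 10 in Intestine, and 11 and 18 of the 18 neutrophil identity genes were lower. Their part in the Ccnd1 and Ccnd3 differences was not tested. Cdk6 averaged 31.4 ± 6.83 in Blood, 85.4 ± 18.7 in BM and 130.1 ± 21.9 in Intestine. Cdc25a, a phosphatase that activates cyclin-dependent kinases, averaged 11.7 ± 6.59 in BM and 0.529 ± 0.264 in Blood (2.95 ± 0.67, adjusted p = 0.0149).

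In all, 10 members lie opposite a protein-coding gene on the other strand, and the use of strand in counting is not given in the sources used here, so reads of the partners may be included: Tk1, Mcm7, Ccne2, Ccna2, Cdca8, Cdc20, Ube2c, Kif20a, Nusap1 and Prc1. Of these, Mcm7, Ccna2 and Cdc20 carried calls.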

How the data were processed

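RNA sequencing of sorted neutrophils was analysed in 18 libraries, 3 for each of 6 tissues, grouped by the labels. The authors deposited 1 table for the whole series with 32328 Ensembl genes, of which 31820 were matched to a symbol in the GENCODE annotation of GRCm38. Reads were single-end, 61 bases long, from RNA amplified with a kit for small inputs, per the labels' protocols. CASAVA, RSEM 1.3.1, limma and the build mm10 are named, per the submitters' processing notes, without their roles or settings. The deposited values are a normalized signal per gene: although the table's name says TPM, each equals (estimated count + 0.5) / (scaled library size + 1) x 1000000, with no division by gene length, as the floor value of each library shows. Estimated counts recovered this way were whole within 0.01 for 75.6% to 90.6% of values, so no count model was used. All sample columns were used. How far amplification and the RSEM assignment moved single values was not tested.

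Values were tested as log2(value + 1) with limma 3.58.1 in R 4.3.3: 6 tissue means, 12 residual degrees of freedom, eBayes with trend, Benjamini-Hochberg over the 16157 genes that reached 1 in 3 or more libraries, threshold 0.05. Log2 differences are on that scale and understate changes of low genes. Each tissue received 1 weight, because Skin libraries scattered most (weights 0.223 in Skin to 2.13 in Blood) and because a fit with 1 spread, when tested on simulated data, found few of the known differences outside Skin. An earlier fit of these data used 1 spread for all libraries, and it is kept as an alternative. The fit was tested on simulated data, with differences placed in BM and the spread of each tissue taken from these libraries. Such data favour a weight per tissue by construction and cannot decide between the fits. A fold against a tissue with no reads is a lower bound at 3 reads per library, and it covers counting error only.

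The 37 members and all gene, marker and motif lists were chosen with earlier results of these data known. Genes given by library are Top2a, Mki67, Rrm2, Ccnb1, Cdk1, Mcm3, Pcna, Stmn1, Birc5, Plk1 and every member that passed the F test. Up to 4 genes with the smallest F-test p are named per pathway list. Marker lists not otherwise printed gave these F-test counts: 6 of 14 T and NK, 8 of 12 macrophage and monocyte, 6 of 8 erythroid, 10 of 11 intestinal epithelial and 9 of 12 epidermal genes. Promoters and motifs were read from RefSeq (GRCm38.p6), 1 window per gene. The alternatives were other weights, pseudocounts, filters and scalings, voom, a replicate block and libraries left out.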

Additional observations from a re-analysis of the deposited data

How the results depend on the processing

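Of 138 log2 differences of members and named pathway genes that were refitted, 0 changed direction in an alternative. Nearly all of them were chosen because they passed in the main fit. Equal weights, no trend in the variance or a library left out of another tissue leave a difference of tissue means unchanged. A reversal was therefore unlikely from the start. Every member median kept its sign except Skin minus Blood without Skin replicate 1 (-0.08). The medians ranged from 0.98 to 3.41 for BM minus Blood, 0.82 to 3.50 for Spleen minus Blood and 0.72 to 2.80 for Intestine minus Blood. The counts of members called depended on the weights, the libraries fitted, the filter and the scaling. With 1 spread for all libraries, they were 2 for BM minus Blood, 0 for Spleen minus Blood, 1 for Lung minus Blood, 0 for Spleen minus BM, 4 for Lung minus BM and 9 for Skin minus BM, and with 1 weight per library 2 for Skin minus BM. With only the 6 libraries compared, they were 4 for Lung minus Blood and 0 for Skin minus Blood and Skin minus BM. Keeping the filter over all 18 libraries in that fit, an alternative added after seeing the data, gave 0 for BM minus Blood, 4 for Spleen minus Blood, 3 for Lung minus Blood, 2 for Lung minus BM, 3 for Intestine minus BM and 0 for both Skin comparisons. With no filter, they were 9 for Spleen minus Blood, 5 for Lung minus Blood, 0 for Skin minus Blood and 0 for Spleen minus BM, and after quantile normalization 5 for Lung minus Blood and 11 for Intestine minus BM. Voom gave 0 for both Skin comparisons. A pseudocount of 4 gave 2 for Spleen minus BM and 2 for Skin minus BM. Spleen minus BM was at 0 with a pseudocount of 0.25, without the Skin libraries, without trend, and without both BM replicate 2 and Skin (also added after seeing the data). The cause of these moves was not tested.

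Leaving out each library in turn gave 16 to 21 members by the F test, 5 to 12 for BM minus Blood, 7 to 18 for Spleen minus Blood, 2 to 9 for Lung minus Blood, 12 to 17 for Intestine minus Blood, 0 to 1 for Skin minus Blood, 0 to 2 for Spleen minus BM, 3 to 8 for Lung minus BM, 4 to 7 for Intestine minus BM and 0 to 2 for Skin minus BM. Each such fit keeps 2 libraries in the tissue concerned. No pairing by replicate number was seen: over 45 pairs with the same number, deviations from the tissue means correlated at -0.06 to 0.106, with 1 pair over 0.1, and 7 of 18 libraries correlated best with their own number. Blood replicate 3 is labelled D where replicate 3 of the other tissues is labelled C. The check cannot exclude that libraries with the same number share a mouse or a batch. With the replicate block, Spleen minus BM had 2 members instead of 1, the other member counts moved by at most 1, and the other mitosis genes had 8 calls for BM minus Blood instead of 5. Single values below about 1 rest on few reads: 3 reads equal a value of 0.218 in Spleen replicate 2 and 1.3 in Skin replicate 2.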

Other observations

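Genes that restrain the cycle were not among the 37. Of 17 tested inhibitors and brakes, 11 passed the F test, where 40.4% of all tested genes did. No gene of the list differed between BM and Blood, where 2.88% of all genes did (limma, 2 of the list higher and 1 lower at an unadjusted p under 0.05). Cdkn2d, which encodes the p19 inhibitor of the D cyclin kinases, was highest in Blood, with a mean of 423 ± 71.0 (SD, n = 3), against 150 ± 26.4 in BM, 133 ± 21.7 in Spleen, 140.0 ± 76.0 in Lung and 26.7 ± 11.2 in Intestine. It was lower than in Blood in Spleen (-1.67 ± 0.37, adjusted p = 0.00497), Lung (-1.70 ± 0.47, 0.0149), Intestine (-4.00 ± 0.46, 3.07e-07) and Skin (-3.81 ± 0.84, 0.01).

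Cdkn1a, which encodes p21, was nearly absent from BM (0.342 ± 0.499) and Blood (1.94 ± 2.61) and averaged 67.1 ± 18.6 in Lung, 19.4 ± 6.99 in Intestine and 188 ± 62.7 in Skin. The differences from Blood were 4.86 ± 0.76 in Lung (adjusted p = 9.26e-05), 3.09 ± 0.74 in Intestine (0.00177) and 6.32 ± 1.36 in Skin (0.00908). Btg2, an antiproliferative gene induced by stress and growth signals, averaged 2750 ± 914 in Lung and 462 ± 226 in Blood (2.63 ± 0.38, adjusted p = 3.41e-05). Btg1, a relative of Btg2, moved the other way in Intestine, at 160 ± 10.2 against 1738 ± 526 in Blood (-3.39 ± 0.34, 5.78e-08). The endothelial, epidermal and fibroblast marker sums that differed in Lung, Skin and Intestine differed here too, and their part in these values was not tested.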
